A study of Homo sapiens with 8 samples.

Results

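The expression of 9 genes of gluconeogenesis and its hepatic control was examined in HuH7, a cell line derived from a human hepatoma, given ginsenoside Rk2 or its vehicle after oxygen-glucose deprivation. The genes were taken by symbol, with no threshold on their values, from a list drawn up with earlier results of these data known. They were the enzymes PCK1, PCK2, PC, FBP1, G6PC and G6PC3, the glucose-6-phosphate carrier SLC37A4, and the coactivators PPARGC1A and CRTC2. The count table of 15767 genes held 8 of the 9, and all 8 were among the 12928 genes tested. G6PC was only in the table of FPKM (fragments scaled by gene length and library size) for 19799 genes, where it was listed at 0 in every library. The HuH7 cells were labelled wild type. All cultures were held at 1% oxygen without glucose for 6 h and then reoxygenated for 6 h in medium with DMSO (I/R+DMSO, n = 4) or with 20 µM ginsenoside Rk2 (I/R+Rk2, n = 4). The labels do not say whether the 4 libraries of a group came from separate cultures, so the p-values measure the spread between these libraries, which may be technical. Cells without oxygen-glucose deprivation were not analysed here.

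Gluconeogenesis makes glucose from lactate, amino acids and glycerol, chiefly in liver and kidney. Pyruvate carboxylase (PC) makes oxaloacetate in mitochondria, and a phosphoenolpyruvate carboxykinase turns oxaloacetate into phosphoenolpyruvate, either in the cytosol (PCK1) or in mitochondria (PCK2). Fructose-1,6-bisphosphatase (FBP1) and glucose-6-phosphatase (G6PC in liver and kidney, G6PC3 in most tissues, both fed by SLC37A4) carry out the later steps. PCK1 and G6PC are classic targets of cAMP and insulin signalling through CRTC2, PPARGC1A and FOXO1, whereas PCK2 is known as a target of ATF4 in the amino acid response.

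The upstream sequences of 3 of these genes are shown as examples, from the mitochondrial enzymes PCK2 and PC and from the liver-type phosphatase gene G6PC. Their part in the expression values was not tested. RefSeq promoter sequences on GRCh38.p14 were matched for 7 of the 9 genes, all but PCK1 and CRTC2. The 250 bases before the start site, 5′ to 3′, were for PCK2 chr14:24094061-24094310 on the plus strand, for the first listed start of PC chr11:66958384-66958633 on the minus strand, and for G6PC chr17:42900549-42900798 on the plus strand. Capitals mark a match to the element TGATGNAAN, which C/EBP and ATF family proteins can bind.

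PCK2: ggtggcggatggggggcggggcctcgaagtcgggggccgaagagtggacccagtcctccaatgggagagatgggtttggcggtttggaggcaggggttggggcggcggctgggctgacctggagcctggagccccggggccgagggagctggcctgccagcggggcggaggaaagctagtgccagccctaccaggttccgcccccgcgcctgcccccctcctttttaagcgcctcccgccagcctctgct

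PC: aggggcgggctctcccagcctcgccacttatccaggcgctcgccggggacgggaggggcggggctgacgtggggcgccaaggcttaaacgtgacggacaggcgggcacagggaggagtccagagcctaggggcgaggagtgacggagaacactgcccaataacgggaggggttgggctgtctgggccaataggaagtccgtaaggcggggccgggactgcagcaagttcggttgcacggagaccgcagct

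G6PC: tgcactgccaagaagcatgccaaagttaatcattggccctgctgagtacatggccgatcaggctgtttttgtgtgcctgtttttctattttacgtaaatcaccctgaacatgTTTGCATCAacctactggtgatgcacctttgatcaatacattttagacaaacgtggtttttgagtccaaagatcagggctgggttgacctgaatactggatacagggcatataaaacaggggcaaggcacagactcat

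Motifs were searched on both strands from 250 bases before to 50 after each listed start. These were the cAMP response element TGACGTCA, the element TGATGNAAN and the forkhead core TGTTTAC, held by 1.85%, 3.61% and 3.42% of 35116 RefSeq promoters. The 13 promoters of the 7 matched genes gave 1 match, TGATGNAAN on the minus strand of G6PC, which appears as TTTGCATCA in the printed strand, beginning 138 bases before the start. The PCK2 window held none of the 3 motifs and was 71.7% G or C, against a median of 58.7% over all promoters and 45.7% in G6PC. A match of letters is not evidence of binding, and these letters may lie outside the window.

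With Rk2, 3 of the 8 tested genes were higher at an adjusted p below 0.05 and none was lower. At an unadjusted p under 0.05 G6PC3 alone was lower, and DESeq2 called it. The 3 higher genes were PCK2 (1.43-fold), PC (1.15-fold) and PPARGC1A (2.27-fold). In bulk RNA, more cells that express a gene and more RNA of it per cell cannot be told apart. Over all 12928 tested genes 2351 were called (18.2%), with 1416 higher (11%) and 935 lower (7.23%), by edgeR's quasi-likelihood test on counts with Benjamini-Hochberg adjustment. The split of calls moved with the scaling, to 1246 higher and 1300 lower with upper-quartile normalization, 1643 and 683 with library size only, and 1027 and 1242 after a gene length correction. A fold above 1.5 as well left PPARGC1A alone of the 8, against 393 of all tested genes (3.04%) and 318 of them higher (2.46%). In 5 of the 8 genes (PCK1, PCK2, PC, G6PC3 and PPARGC1A) DMSO and Rk2 libraries did not overlap in CPM (counts scaled to library size), as in 28.2% of all tested genes.

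**Figure D1:**
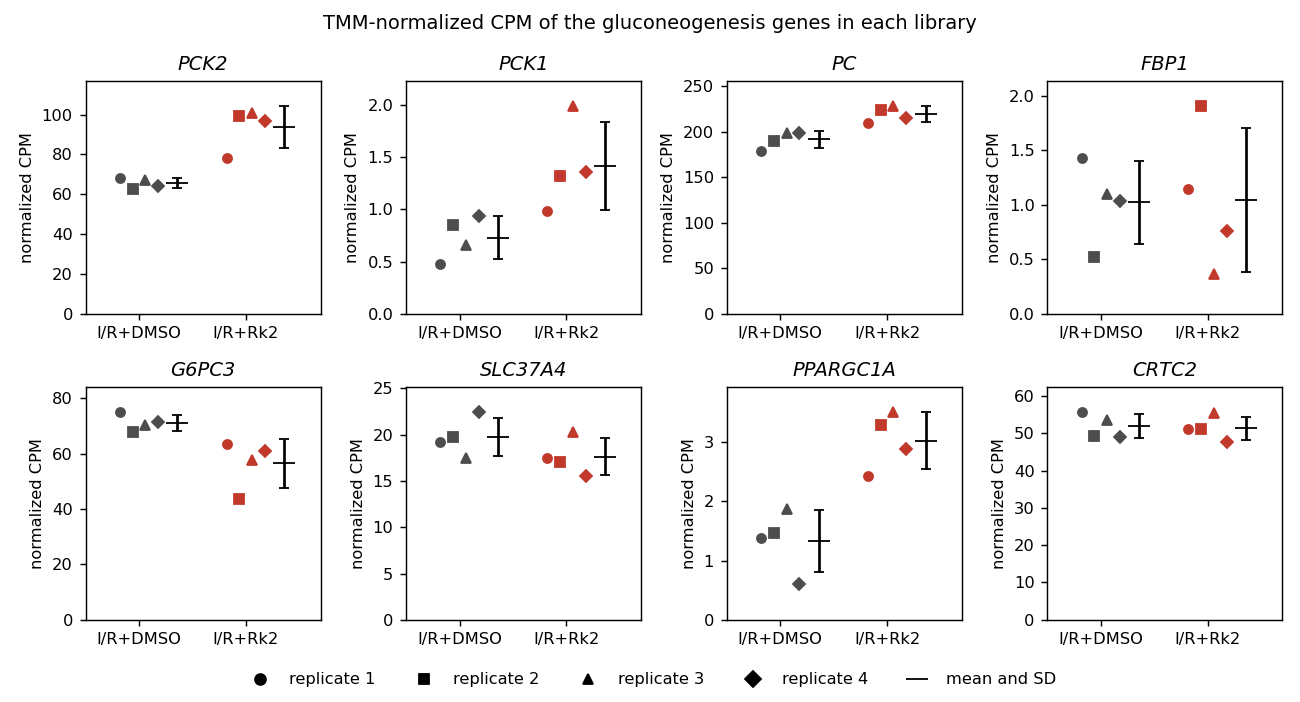
Each panel plots, for 1 gene, the TMM-normalized counts scaled to library size (CPM, linear axis from 0) of the 4 I/R+DMSO and 4 I/R+Rk2 libraries, with the marker shape giving the replicate and the black bar the mean and SD. All 4 Rk2 points lie above all DMSO points for PCK2, PCK1, PC and PPARGC1A and below them for G6PC3, while FBP1, SLC37A4 and CRTC2 overlap.

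Library totals ranged from 16374082 to 30310479 counts, the highest 1.85 times the lowest. The line expressed hepatocyte markers, with all 10 on the list above 1 CPM in every library. Their summed level was 11529 to 12585 CPM with DMSO and 12366 to 12762 with Rk2. AFP was the largest part of this sum, at means of 5929 and 5930 CPM. Single markers moved in both directions, such as APOB (means of 1056 with DMSO and 1615 with Rk2) and FGB (350 and 290). Summed markers of fibroblasts were 19.6 to 23.5 CPM with DMSO and 18.9 to 22.1 with Rk2, and those of endothelium 8.33 to 10.0 and 9.0 to 10.8. The fibroblast sum was mostly COL1A2, with DCN and THY1 listed at an FPKM of 0. The endothelial sum was PECAM1 alone, since VWF, CDH5, KDR and TEK were listed at an FPKM of 0. Leukocyte markers summed to 665 to 729 and 632 to 723 CPM, nearly all from LYZ and CD68, whereas PTPRC, which defines leukocytes, was listed at an FPKM of 0. The part of these markers in the results was not tested. The voom fit of limma gave I/R+DMSO replicate 1 less weight than any other library (0.353, against 0.814 to 1.48), and values without it are given for the called genes. Over the tested genes, the fold change correlated with the gene length derived from counts and FPKM (Spearman's rho = 0.388 across genes, which are not independent replicates), so results after a length correction are given where they change a call.

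Among the carboxykinases, the mitochondrial PCK2 was abundant and rose with Rk2. PCK2 (GENCODE v29 on GRCh38, chr14:24094053-24110598) had 68.2, 62.5, 67.0 and 64.4 CPM in the DMSO libraries and 78.1, 99.2, 101 and 96.7 CPM in the Rk2 libraries. Every Rk2 library was above every DMSO library, with replicate 1 the lowest of the Rk2 group. The means were 65.5 ± 2.57 and 93.8 ± 10.6 CPM (SD, n = 4 each), which is 0.52 on the log2 scale (SE 0.0835, 95% interval 0.33 to 0.71, adjusted p = 0.00574, edgeR). The call held under all 19 refits, though not with a fold above 1.5 required, with adjusted p from 2.1e-06 to 0.0463. Without DMSO replicate 1 the log2 difference was 0.54 (adjusted p = 0.0111, edgeR). After the length correction it was 0.59.

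The authors' FPKM gave the same order of the groups. PCK2 was at 30.3, 31.7, 42.3 and 43.8 FPKM with DMSO and at 48.9, 58.7, 56.6 and 59.7 with Rk2. The groups again did not overlap, but the DMSO libraries spread more widely in FPKM (SD 7.03 about a mean of 37.0) than in CPM.

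The cytosolic PCK1 (chr20:57561080-57568112) was low, at rank 12163 of the 12928 tested genes by mean count, against 2882 for PCK2. Its counts were 9, 18, 12 and 20 with DMSO and 30, 25, 33 and 27 with Rk2. Scaled to library size these were 0.477, 0.847, 0.660 and 0.937 CPM with DMSO and 0.982, 1.32, 1.99 and 1.36 CPM with Rk2. The groups did not overlap in CPM, although the highest DMSO and lowest Rk2 libraries lay close together. In FPKM they did overlap, with DMSO up to 0.290 and Rk2 from 0.162. The means were 0.730 ± 0.204 and 1.42 ± 0.422 CPM (SD, n = 4 each), a log2 difference of 0.92 (SE 0.292, 95% interval 0.25 to 1.59) that did not pass (adjusted p = 0.0618, edgeR). It passed in 1 of 16 alternatives, without Rk2 replicate 1 (1.07, with an adjusted p just under the threshold in edgeR). The spread of PCK1 between DMSO libraries, a coefficient of variation of 28.0%, was close to the 26.0% that counting error alone gives, and with Rk2 it was 29.8% against 18.7%.

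The contrast of the 2 carboxykinases was tested within each library, where scaling to library size drops out. An effect of gene length does not drop out, since the derived lengths were 5398 bases for PCK1 and 1675 for PCK2. PCK2 counts were 143, 73.8, 101 and 68.7 times the PCK1 counts in the DMSO libraries and 79.5, 75.0, 50.7 and 70.9 times in the Rk2 libraries. Per gene length, as the FPKM imply it, the ratio of FPKM was 136 to 396 over the 8 libraries. The log2 ratio of PCK1 to PCK2 counts, with 0.5 added to each, was -6.48 ± 0.464 with DMSO and -6.06 ± 0.289 with Rk2 (SD, n = 4 each). The groups overlapped, and the difference of 0.42 (SE 0.273) was within the spread of the libraries (two-sided exact permutation p = 0.257, where 0.0286 is the smallest possible). From FPKM with 0.1 added to each, the difference was 0.034 (exact permutation p = 0.914). That 0.1 is of the size of the PCK1 values themselves (0.0764 to 0.439 FPKM), so it weighs on this result. Without it, PCK2 over PCK1 in FPKM was 151 to 396 with DMSO and 136 to 302 with Rk2. Over 4 alternatives with all libraries, among them a length correction, the difference was 0.034 to 0.42 (permutation p from 0.4 to 0.914). These counts therefore did not separate the changes of PCK1 and PCK2, and the test does not show that they were equal.

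**Figure D2:**
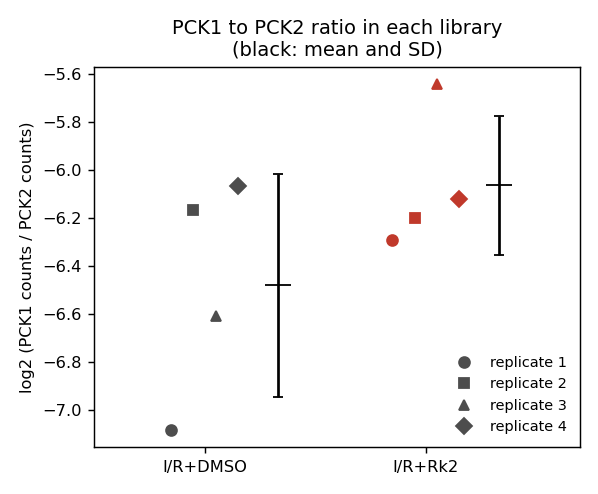
The log2 ratio of PCK1 to PCK2 counts (vertical axis) is plotted for each library of the 2 groups, with the black bar giving the mean and SD. The DMSO libraries span -7.08 to -6.07 and the Rk2 libraries -6.29 to -5.64, so the groups overlap.

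PC, the mitochondrial carboxylase at the entry to the pathway, had the highest level per length of the 9 genes with DMSO and rose slightly. With Rk2 its FPKM range overlapped that of PCK2 (52.6 to 61.2 and 48.9 to 59.7). PC (chr11:66848233-66958376, minus strand) was at 179, 190, 198 and 199 CPM with DMSO and at 210, 224, 228 and 216 CPM with Rk2. The groups did not overlap. The means were 192 ± 9.41 and 219 ± 8.43 CPM (SD, n = 4 each), which is 0.20 on the log2 scale (SE 0.0476, adjusted p = 0.0260, edgeR). In FPKM the groups overlapped (54.3 ± 4.24 and 58.2 ± 3.82) and limma gave 0.10 with adjusted p from 0.454 to 0.471. The length correction also ended the call (0.13, adjusted p = 0.0782, edgeR). So did the removal of Rk2 replicate 2, 3 or 4 or of DMSO replicate 2 (adjusted p from 0.0583 to 0.0707, edgeR), whereas without DMSO replicate 1 it held (0.16, adjusted p = 0.0316). Its exons overlap those of LRFN4 on the other strand, and whether the counting used strand is not given in the sources used here.

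FBP1 (chr9:94603133-94640249, minus strand), which removes a phosphate from fructose 1,6-bisphosphate, was at 6 to 36 counts per library. It had 1.43, 0.517, 1.10 and 1.03 CPM with DMSO and 1.15, 1.91, 0.363 and 0.758 CPM with Rk2. The Rk2 libraries included both the highest and the lowest of the 8. The log2 difference of 0.053 had a 95% interval of -1.04 to 1.15 (adjusted p = 0.953, edgeR), so a change of about 2.22-fold up or to 0.485-fold down lay within it. The sign turned with a replicate block (-0.059), without replicate 2 of the DMSO group (-0.17), or without replicate 2 of the Rk2 group (-0.36). Exons of PCAT7 on the other strand overlap it.

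The last step showed no called gene. G6PC (chr17:42900797-42913369), the liver and kidney catalytic subunit, was listed at an FPKM of 0 in all 8 libraries. Of the 4032 genes in the FPKM table that were outside the count table, 4018 were at 0 throughout. G6PC therefore gave neither a fold nor a ratio to G6PC3.

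The widely expressed subunit G6PC3 (chr17:44070735-44076344) was at 75.0, 67.9, 70.4 and 71.3 CPM with DMSO and at 63.6, 43.7, 57.6 and 61.0 CPM with Rk2. All 4 Rk2 libraries were below all DMSO libraries, and replicate 2 lay well below the rest of its group. The means were 71.2 ± 2.95 and 56.5 ± 8.87 CPM (SD, n = 4 each), and the log2 difference of -0.33 (SE 0.11, 95% interval -0.58 to -0.08) missed the threshold (adjusted p = 0.0696, edgeR). The spread with Rk2 was 15.7% of the mean, where counting error gives 2.85%. The gene was called lower in 2 of 19 alternatives, by DESeq2 (adjusted p = 0.0304) and, in edgeR, without Rk2 replicate 2 (-0.23, adjusted p = 0.0467). It was not called after the length correction (-0.26, adjusted p = 0.145, edgeR) or by limma on FPKM (-0.28, adjusted p from 0.162 to 0.198). In FPKM the groups did not overlap either, with 39.2 to 41.6 against 25.7 to 37.3.

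SLC37A4 (chr11:119024114-119030906, minus strand), which carries glucose 6-phosphate into the endoplasmic reticulum, was at 19.3, 19.8, 17.5 and 22.4 CPM with DMSO and at 17.5, 17.1, 20.3 and 15.6 CPM with Rk2. The groups overlapped. The log2 difference was -0.17 (95% interval -0.40 to 0.07, adjusted p = 0.296, edgeR), and no alternative called it. Its exons overlap those of TRAPPC4 on the other strand.

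Of the coactivators, PPARGC1A had the largest fold of the 8 tested genes, from low counts. PPARGC1A (chr4:23755041-23904089, minus strand), which encodes PGC-1α and drives mitochondrial and gluconeogenic genes in fasted liver, had 26, 31, 34 and 13 counts with DMSO and 74, 62, 58 and 57 with Rk2. These were 1.38, 1.46, 1.87 and 0.609 CPM with DMSO and 2.42, 3.28, 3.50 and 2.88 CPM with Rk2. In CPM no DMSO library reached the lowest Rk2 library, and I/R+DMSO replicate 4 was the lowest of all. In FPKM the groups overlapped, since DMSO replicate 2 (0.403) was above Rk2 replicates 1 (0.319) and 4 (0.387). The means were 1.33 ± 0.526 and 3.02 ± 0.477 CPM (SD, n = 4 each), which is 1.18 on the log2 scale (SE 0.30, 95% interval 0.50 to 1.87, adjusted p = 0.0299, edgeR). The length correction ended the call (0.99, adjusted p = 0.0702, edgeR), as did limma on unfiltered FPKM (0.31, adjusted p = 0.171). Removing Rk2 replicate 2, 3 or 4, or DMSO replicate 1 or 2, ended it too (adjusted p from 0.0576 to 0.0712, edgeR), at log2 differences of 1.10 to 1.23 (1.20 without DMSO replicate 1). Of the 2410 tested genes under a mean of 100 counts 6.06% were called, and of the other 10518 21%.

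CRTC2 (chr1:153947669-153958625, minus strand), a CREB coactivator released by dephosphorylation, was at 55.6, 49.3, 53.5 and 49.0 CPM with DMSO and at 51.1, 51.0, 55.3 and 47.6 CPM with Rk2. The groups overlapped almost entirely. The log2 difference was -0.017 with a 95% interval of -0.17 to 0.13 (adjusted p = 0.885, edgeR), or 0.892-fold to 1.10-fold under TMM scaling, and its sign changed between alternatives.

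**Figure D3:**
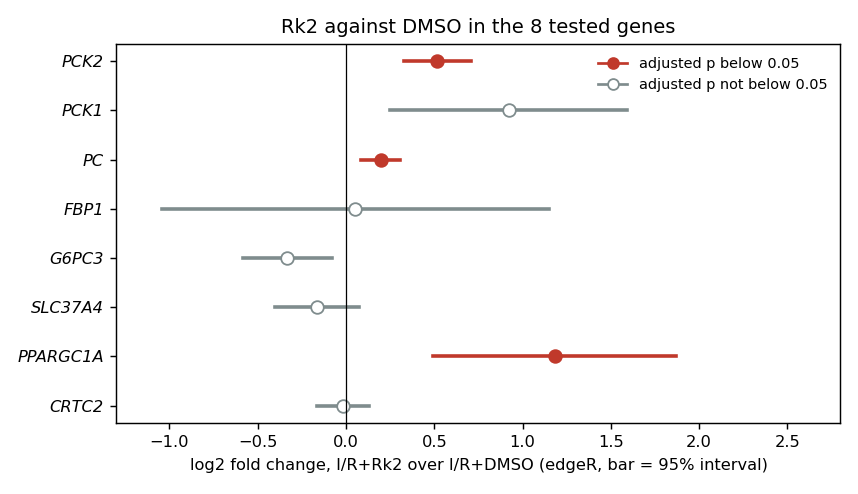
The log2 fold change of I/R+Rk2 over I/R+DMSO from edgeR (horizontal axis) is drawn for the 8 tested genes with its 95% interval as a bar, filled red where the adjusted p was below 0.05. PCK2, PC and PPARGC1A are filled, PCK1 and G6PC3 have intervals that leave out 0 without passing the adjustment, and FBP1 has the widest interval.

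Levels were compared between genes in FPKM, which is per gene length, although the length it implies differed between libraries. It also differed between genes relative to the longest annotated transcript. The derived length was 1.06 to 1.20 times that transcript for PCK1, FBP1 and PPARGC1A. For PCK2, PC, G6PC3, SLC37A4 and CRTC2 it was 0.39 to 0.87 times, so the gaps in FPKM between these sets depend on the implied lengths. With DMSO the order of mean levels was PC (54.3 ± 4.24), G6PC3 (40.4 ± 0.987), PCK2 (37.0 ± 7.03), CRTC2 (22.8 ± 2.66), SLC37A4 (8.30 ± 0.878), FBP1 (0.556 ± 0.196), PPARGC1A (0.234 ± 0.138), PCK1 (0.163 ± 0.0946) and G6PC (0), each with n = 4. The ranges of neighbours overlapped for G6PC3 and PCK2, for FBP1 and PPARGC1A, and for PPARGC1A and PCK1. With Rk2, PCK2 averaged 56.0 ± 4.89 FPKM and G6PC3 33.5 ± 5.34 (n = 4 each). Their ranges were then apart, with PCK2 from 48.9 and G6PC3 up to 37.3. FBP1, PPARGC1A, PCK1 and G6PC thus had mean levels below 1 FPKM in both groups, while the mitochondrial enzymes PC and PCK2 and the broadly expressed G6PC3 were well detected.

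**Figure D4:**
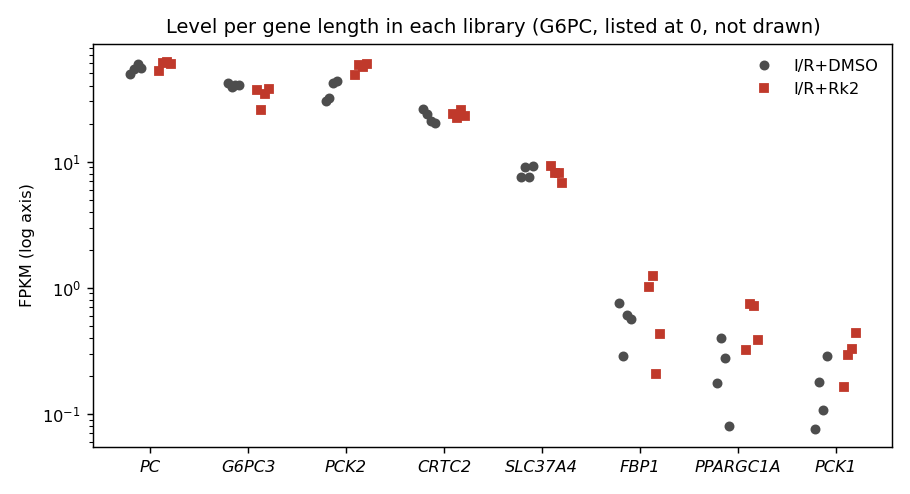
The deposited FPKM of each library is plotted on a log axis for 8 genes, ordered by their mean in I/R+DMSO, with grey circles for DMSO and red squares for Rk2. PC, G6PC3 and PCK2 lie between 25.7 and 61.2 FPKM, while FBP1, PPARGC1A and PCK1 lie at or below 1.23 FPKM, and G6PC was listed at 0 and is not drawn.

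The rest of the pathway was counted from 4 lists compiled by hand. Of 27 other enzymes and carriers, 21 were tested, 1 was higher and 3 were lower, with a median log2 difference of -0.11 against -0.0021 for all tested genes. The share called, 19%, was close to the 18.2% of all tested genes. The higher gene was GK, glycerol kinase, which feeds glycerol into the pathway (0.47, adjusted p = 0.00396, edgeR). PGAM1 (-0.21, adjusted p = 0.00609) and GAPDH (-0.20, adjusted p = 0.0226), which serve glycolysis and gluconeogenesis alike, and LDHB, a lactate dehydrogenase subunit (-0.40, adjusted p = 0.0497), were lower in edgeR. The LDHB call was lost under 17 of 18 alternatives, and that of GAPDH without Rk2 replicate 2, 3 or 4 (-0.21 to -0.19, adjusted p from 0.0514 to 0.0611). In the 2 filtered limma fits on FPKM the calls of GAPDH (-0.17, adjusted p = 0.0881 and 0.102) and PGAM1 (-0.18, adjusted p = 0.0687 and 0.0799) were lost, and in 2 of the 3 limma fits that of GK (0.41 and 0.38, adjusted p = 0.0511 in each). The carriers of pyruvate and lactate in this list, MPC1, MPC2 and SLC16A1, had log2 differences of -0.18, -0.08 and 0.01 and were not called.

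Of 34 regulators of the pathway's transcription, all were tested, 10 were higher and none was lower in edgeR (29.4% called against 18.2% of all tested genes, median log2 difference 0.22). At an unadjusted p under 0.05, 2 were lower, and DESeq2 called 1 of the list lower, as did upper-quartile normalization, against 2 after the length correction. CEBPB, a C/EBP factor that acts on PCK1, was at 68.3 ± 3.47 and 107 ± 1.65 CPM (SD, n = 4 each), or 0.65 higher in log2 (adjusted p = 0.000172, edgeR). KLF15, a fasting-induced factor, rose by 1.02 in log2 (adjusted p = 0.00159) and LPIN1, a partner of PPARGC1A, by 0.65 (adjusted p = 0.00173, edgeR). The LPIN1 call was lost in the 3 limma fits on FPKM (0.50 to 0.67, adjusted p from 0.0579 to 0.0779). The 10 also included NR0B2, which encodes SHP, a repressor of gluconeogenic genes. FOXO1 (0.18) and CREB1 (0.35) were not called.

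Of 19 genes for cAMP and insulin inputs, 17 were tested, 7 were higher and none was lower in edgeR (41.2% called against 18.2%, median 0.24). At an unadjusted p under 0.05, 0 were lower in edgeR and 1 in DESeq2, which called none, while 1 was called lower after the length correction. Those with the smallest p were IRS2, an insulin receptor substrate (0.60, adjusted p = 0.00169), PRKAA2, a catalytic subunit of AMPK (0.70, adjusted p = 0.00319), and PRKACB, a catalytic subunit of protein kinase A (0.34, adjusted p = 0.0120, edgeR), whose call was lost in 1 alternative (adjusted p = 0.0547). The list mixes genes that act in opposite directions on the pathway, such as INSR and PRKACB. This count fell to 3 with a replicate block and to 4 after the length correction, and the removal of any Rk2 library or of DMSO replicate 3 gave 3 or 4.

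PCK2 was set beside 22 genes of the ATF4 amino acid response, of which 16 were higher and 1 lower (77.3% called against 18.2%, median log2 difference 0.64). STC2, a secreted glycoprotein, was at 52.6 ± 1.95 and 150 ± 2.03 CPM (SD, n = 4 each), or 1.51 higher in log2 (adjusted p = 1.9e-06, edgeR). ASNS, asparagine synthetase, rose by 1.00 in log2 (adjusted p = 5.5e-06) and PSAT1, of serine synthesis, by 0.63 (adjusted p = 3.4e-05, edgeR). ATF5 was lower (-0.44, adjusted p = 0.00721, edgeR). The log2 fold change of PCK2, 0.52, lay below the median of this list. These lists were chosen with earlier results of these data known and are not independent evidence of direction.

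**Figure D5:**
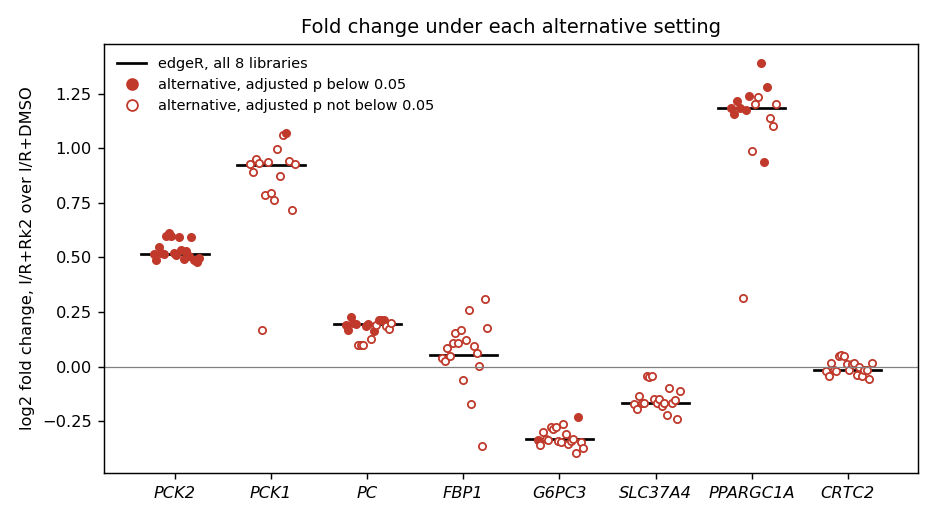
For each of the 8 tested genes the black line gives the edgeR log2 fold change (vertical axis) and each point the value under 1 alternative analysis or with 1 library left out, filled where the adjusted p was below 0.05. All PCK2 points are filled, from 0.48 to 0.61, those of PC and PPARGC1A are partly open, and those of FBP1 and CRTC2 fall on both sides of 0.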

How the data were processed

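RNA-seq of 8 HuH7 libraries was re-analysed, with samples grouped by the treatment their labels give. The authors made the libraries from total RNA with the MGIEasy kit. The authors deposited raw counts per gene, without normalization, and FPKM, which are fragments scaled by the length of the gene and the size of the library. Counts and FPKM were not in fixed proportion. In I/R+DMSO replicates 1 and 4, PCK2 had 1285 and 1374 counts and 30.3 and 43.8 FPKM, at library totals of 19257935 and 21447045. The length that the FPKM imply thus differed between libraries, and the cause was not tested. The submitters' processing notes name FastQC 0.11.5, HISAT2 2.2.1, StringTie 1.3.3 and hg38. The counting tool, the annotation and the use of strand are not given in the sources used here. Gene coordinates come from GENCODE v29 (98.4% of the tested symbols matched) and upstream sequences from RefSeq. Among the counts, 22 symbols had been turned into dates (0.111% of counts) and were not assigned to genes.

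A gene entered the test when 4 or more libraries each had 10 or more counts. The fit used the robust quasi-likelihood test of edgeR 4.0.16 (R 4.3.3) on TMM-normalized counts, with condition as the only term, all 8 libraries, and Benjamini-Hochberg adjustment over all tested genes at 0.05. The biological coefficient of variation was 17.1%. Every fold change is of Rk2 relative to DMSO. CPM values are TMM-normalized. The ratio of PCK1 to PCK2 was tested by exact permutation in SciPy 1.17.1, and that of G6PC to G6PC3 could not be computed.

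The members and the gene lists were chosen with earlier results of these data known. The text names all 9 members, in each related list up to 3 called genes with the smallest p in each direction, and for PCK1 and PCK2 genes with the nearest profile. NR0B2, FOXO1, CREB1, INSR, MPC1, MPC2 and SLC16A1 were named after their values were seen, and some genes the rule selects are not reported here. Results were recomputed with DESeq2 1.42.0, with upper-quartile or library-size scaling, without the count filter or with 50 counts required per library, by voom with sample weights, with replicate number as a block, and by limma 3.58.1 on FPKM. For limma, 1 or 0.1 was added to FPKM before the log2, and genes under a mean of 0.5 were left out, or kept in a further fit with 1 added. Further recomputations used a length correction (loess, span 0.5, on a length derived from counts and FPKM), a fold above 1.5, and fits without each library. That derived length was the median over libraries.

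On simulated data for this comparison, over 12928 genes, the edgeR step recovered 95% of 100 genes changed 2-fold and 98% of 100 changed 4-fold, with 6 false calls. The changed genes were drawn from all count levels, and every gene had the same dispersion. These shares need not hold for genes as low as PCK1, FBP1 and PPARGC1A. Pairs of libraries were compared within groups only. They differed by 16.2 to 29.8 times counting error (chi-square per degree of freedom over tested genes), so no group held a library more than once. This does not show that the libraries came from separate cultures.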

Additional observations from a re-analysis of the deposited data

How the results depend on the processing

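PCK2 kept its direction and its call under every refit, though not with a fold above 1.5 required, and PC, PPARGC1A, PCK1, G6PC3 and SLC37A4 kept their direction. The number of the 8 genes called, 3 with all libraries, was 1 under each limma fit on FPKM (the filtered fits tested 6 of the 8, without PCK1 and PPARGC1A), 1 after the length correction, 1 with a fold above 1.5 as well, and 1 to 4 with a library left out. Over all genes, 2351 calls became 1040 with limma on log2(FPKM + 1), 979 on log2(FPKM + 0.1), 1162 without the filter, 393 with a fold above 1.5, and 1291 to 2282 with a library left out. Fewer samples enter the fits without a library, and the cause of the other differences was not tested. CRTC2 changed sign with library size only (0.0155), limma on FPKM (0.0504 with 1 added, filtered or not, and 0.0526 with 0.1 added), voom (0.0121) and the length correction (0.0138). With a library left out it ranged from -0.0553 to 0.0187, above 0 without DMSO replicate 1 or Rk2 replicate 4. FBP1 changed sign with the replicate block (-0.059), and with a library left out it ranged from -0.36 to 0.31, below 0 without replicate 2 of either group. The ratio of PCK1 to PCK2 stayed on the same side, from 0.034 (FPKM with 0.1 added to each) to 0.55.

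In the related lists, the 4 called pathway enzymes and carriers became 1 with 1 added to FPKM and 0 with 0.1 added (limma, filtered), and 2 to 4 with a library left out. Where limma called 0, 6 had an unadjusted p under 0.05 (1 higher and 5 lower). The 7 called cAMP and insulin genes became 4 with limma on log2(FPKM + 1) without the filter, 3 with the replicate block, 4 after the length correction, and 3 to 7 with a library left out. The other 2 lists stayed within 1.5 times their counts.

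Pairing by replicate number was not shown, since the deviations of same-numbered libraries correlated at only 0.01 to 0.09. Such weak correlations do not exclude it. With the number as a block 1814 genes were called (1652 shared with the fit without it) and 3 of the 8 genes, and 4 of 8 libraries correlated best with their own number. PCK1, FBP1 and PPARGC1A, at a mean of 21.5 to 44.4 counts per library, had standard errors of 0.292 to 0.479 on the log2 scale, against a median of 0.249 for tested genes under 100 counts and 0.0830 for the rest. Their spread between libraries was above counting error, by most for FBP1 with Rk2 (63.1% against 20.9%).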

Other observations

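Profiles of log2 CPM over the 8 libraries, with 0.5 CPM added before the log2, were compared with that of PCK2. Among 10501 other genes with a mean of at least 100 counts, the nearest were FAM117A, FEM1C, ATP2B1, CARS (cysteinyl-tRNA synthetase) and GPR180. Their root mean squared differences from PCK2 were 0.0682, 0.0686, 0.0715, 0.0772 and 0.0784 on the log2 scale. Their log2 fold changes were 0.58, 0.50, 0.46, 0.41 and 0.59. The nearest to PCK1 was UVSSA, at 0.124, and the other 4 lay at 0.143 to 0.172. The added 0.5 is of the size of the PCK1 values themselves (0.477 to 1.99 CPM), so it flattens the PCK1 profile. Profiles are a description over 8 libraries, and they share the difference between the groups.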
